A study of Mus musculus with 15 samples.

Results

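The comparison asked which genes declined and which rose in the small-intestinal epithelium between the second and the fourth day of RANKL treatment. It rests on 6 of the 15 arrays of the series, the 3 whose titles give 4 days of RANKL and the 3 whose titles give 2. They were picked by title and not by a measured value, though with earlier results of these data known. All 19938 genes represented on the arrays were tested. Both groups were wild-type BALB/c mice of 10 weeks that received a GST-RANKL fusion protein into the peritoneal cavity, 2 injections a day. They differ in the length of treatment only, as far as the labels say. Epithelial sheets were peeled off after 10 min in 30 mM EDTA, and total RNA was labelled with biotin. The other 9 arrays are untreated controls and RANKL for 1 and for 3 days, with 3 arrays each. They entered the joint normalization, supplied part of the estimate of the spread and serve below as levels beside the comparison. The samples include no animals injected with GST or vehicle only. The labels do not tie arrays to single mice, and the p-values therefore reflect variation among these arrays, which may be technical. The samples are bulk epithelium, in which fewer cells of a type and less RNA per cell cannot be told apart.

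RANKL is a cytokine of the TNF family. It binds the receptor RANK, encoded by Tnfrsf11a, and signals to NF-kB through the canonical and the noncanonical arm. In the gut it is made by stromal cells under the epithelium that covers lymphoid follicles, and it drives epithelial precursors there to become M cells, which carry particles from the lumen to the immune cells beneath. Given systemically, it induces cells with M cell features on villi, where they are otherwise rare. Spib, an Ets-family transcription factor, is needed for M cells to mature, and Gp2, a receptor for fimbriated bacteria, marks the mature cell.

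The tissue label was checked against marker genes. The epithelial genes Epcam (mean log2 intensity 11.75 on day 2 and 11.78 on day 4), Krt8 (13.65 and 13.75) and Vil1 (12.60 and 12.63) were high on both days. As a measure of background, 6 of the 8 Y chromosome genes measured read 4.88 to 5.50 over all 15 arrays, on which Xist was never below 11.93. Uba1y, at 5.82 to 6.32, and Sry, at 7.85 to 8.79, read higher and were left out of this range. Median intensities ran from 147 to 154 on the 6 arrays compared and up to 167 in the series. RANKL day 1 replicate 2 stood apart, with an interquartile range of 1.95 in log2 intensity against 2.26 to 2.55 on the other arrays. It enters the comparison through the spread, and through the normalization and choice of probe sets shared by all 15 arrays. With it left out of the fit alone, 218 genes were called in place of 144.

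Between day 2 and day 4, 144 genes passed an adjusted p of 0.05 in limma's moderated test, 0.722% of those tested. Of these, 97 were higher on day 4 (0.487%) and 47 were lower (0.236%). The largest falls were in the chemokine gene Cxcl9, the transcription factor Spib and the antimicrobial gene Lcn2, and the largest rises in the dehydrogenase gene Adh1, the cytochrome P450 gene Cyp2c65 and the tuft cell gene Rgs13. Called rises ran from 0.28 to 2.30 on the log2 scale with a median of 0.69, and called falls from -0.31 to -2.39 with a median of -0.88. A change of 1 or more was reached by 37 of the called genes (0.186% of those tested), 18 higher and 19 lower. The median over all genes was 0.03. In each of the 144 called genes the 3 day 4 arrays lay on 1 side of all 3 day 2 arrays. Among all genes this held upward for 15.8% and downward for 7.28%. The shares of all genes in this paragraph serve for comparison with the counts of every list below. The count depended on single arrays: 68, 71 and 64 genes were called without day 2 replicate 1, 2 or 3, and 52, 160 and 87 without day 4 replicate 1, 2 or 3. Of the 144 genes, 46 were called in all 15 fits that left out 1 array, 24 higher and 22 lower, and no called gene changed sign in any fit. Where a call is said below to end without an array, that array alone was left out, and the range gives the adjusted p in those fits.

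**Figure D1:**
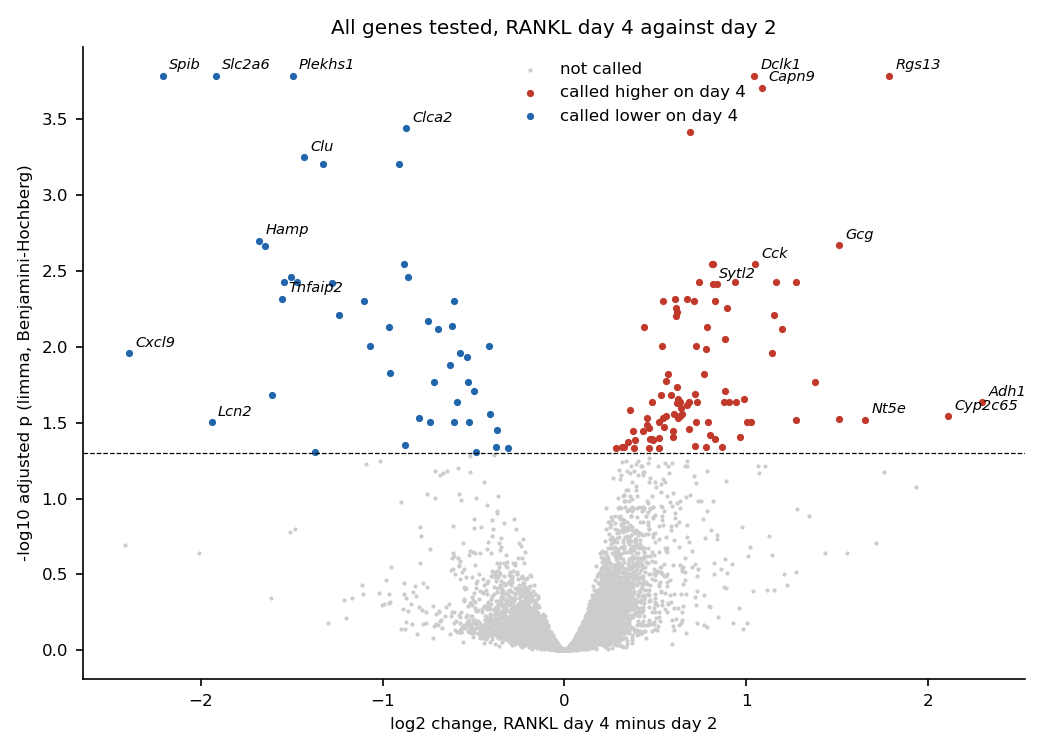
Each point is 1 of the 19938 genes, with the log2 change from RANKL day 2 to day 4 across and minus log10 of limma's adjusted p upward, and the dashed line marks an adjusted p of 0.05. Red points are the 97 genes called higher and blue points the 47 called lower, with Cxcl9 and Spib farthest to the left and Adh1 and Cyp2c65 farthest to the right among the called genes.

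M cell genes had the highest share of falls of the 33 lists. Of 30 M cell markers measured, 11 fell (36.7%) and none rose, against 0.236% of all genes called lower, and the list's median change was -0.57 on the log2 scale. All 33 lists were written with earlier results of these data known, so their counts and medians are descriptions and not tests. In 18 of the 30 every day 4 array lay below every day 2 array, against 7.28% of all genes. In 1 every day 4 array lay above, against 15.8% of all genes. The summed intensity of the list was 44548 to 46619 on the day 2 arrays and 25614 to 32464 on the day 4 arrays, and 14852 to 14956 in controls. The day 4 arrays therefore lay between the control and the day 2 arrays without touching either.

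Spib had a log2 intensity of 11.19, 11.22 and 11.54 on the day 2 arrays and 8.96, 9.58 and 8.77 on the day 4 arrays. Each day 4 array was thus well below the lowest day 2 array, while controls read 6.50, 6.81 and 6.63. The fall was 2.21 ± 0.20 (SE, n = 3 arrays per group), a 4.62-fold lower level (adjusted p = 0.000163). Ccl20, whose product attracts Ccr6-bearing lymphocytes and dendritic cells, went from 10.96, 10.97 and 11.19 to 9.24, 9.55 and 9.38. It fell by 1.65 ± 0.20 (adjusted p = 0.00217), and all day 4 values stayed above the control values of 7.45, 8.03 and 7.57. Tnfaip2, also called M-Sec and known for membrane nanotubes, went from 9.41, 9.48 and 9.86 to 7.71, 8.25 and 8.13 and fell by 1.55 ± 0.22 (adjusted p = 0.00481). Anxa5, a phospholipid-binding annexin, read 11.97, 12.21 and 12.13 on day 2 and 10.48, 11.001 and 10.32 on day 4. Its fall of 1.51 ± 0.20 (adjusted p = 0.00344) left it above the control range of 8.35 to 8.71.

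The fatty acid binding protein gene Fabp5 fell by 1.47 ± 0.20, from 9.68, 9.46 and 10.19 to 8.0, 8.55 and 8.36. A second probe set of Fabp5 gave a change of -1.33. Clu, which encodes the extracellular chaperone clusterin, went from 9.5, 9.85 and 10.20 to 8.26, 8.64 and 8.37, a fall of 1.43 ± 0.15. In both genes the day 4 arrays lay between control and day 2. Ccl9, a chemokine gene of M cells in the follicle epithelium, read 10.73, 10.77 and 10.68 on day 2 and 9.59, 10.01 and 9.36 on day 4. Its fall of 1.07 ± 0.17 (adjusted p = 0.0099) was not called without day 2 replicate 2 or day 4 replicate 1 (adjusted p = 0.0505 and 0.0658), nor with median centring (0.0651). The other 4 called members are named here after their values were seen. Tnfrsf11b, which encodes osteoprotegerin, the secreted decoy receptor of RANKL, went from 9.09, 9.0 and 9.27 to 7.74, 7.98 and 7.80, close to the control values of 7.54, 7.25 and 7.34. Its fall was 1.28 ± 0.18 (adjusted p = 0.0038). The transcription factor Sox8 fell by 0.91 ± 0.10, the secretory granule gene Scg5 by 0.88 ± 0.11 and the peptidoglycan recognition gene Pglyrp1 by 0.57 ± 0.09. Of the 11 calls, 9 held without any single array, the exceptions being Ccl9 and Pglyrp1, which was not called without day 2 replicate 1 or 3 (highest adjusted p = 0.0588). The day 4 mean was above the control mean in all 11.

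Other genes of the M cell state did not pass the test. Gp2 read 9.78, 10.00 and 9.59 on day 2, a mean of 10.99 on day 3, and 8.97, 10.17 and 8.95 on day 4. The day 4 arrays thus straddled the day 2 arrays, replicate 2 above all of them and the other 2 below, and the change was -0.42 with a 95% interval from -1.17 to 0.32 (adjusted p = 0.801). H2-M2, a nonclassical MHC class I gene, read 10.53, 10.55 and 10.60 on day 2 and 10.56, 10.88 and 10.05 on day 4. Its change was -0.06 with an interval from -0.63 to 0.51, against control values of 6.31 to 7.02. Nox1, which encodes a superoxide-producing NADPH oxidase of gut epithelium, read 11.33, 10.99 and 11.01 on day 2 and 9.86, 10.17 and 10.04 on day 4. The 2 groups did not overlap, and its change of -1.09 ± 0.24 missed the threshold (adjusted p = 0.0588), though it passed under 4 of the 12 other settings, such as the fit of the 6 arrays alone (adjusted p = 0.0139).

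The RANK gene and the list of NF-kB genes gave 1 call. Tnfrsf11a, the gene of RANK itself, read 10.16, 10.23 and 10.24 on day 2 and 9.95, 9.91 and 10.13 on day 4, a change of -0.21 (95% interval -0.44 to 0.02). Nfkb2, the precursor of the noncanonical subunit p52, had an estimate of -0.21 ± 0.08 (adjusted p = 0.413), and Relb, its partner, one of -0.16 ± 0.07 (adjusted p = 0.533). The list of NF-kB pathway members and targets had 22 genes, of which 1 fell and none rose, with a median of -0.15. That gene was Icam1, an adhesion molecule bound by leukocyte integrins, which went from 9.21, 9.24 and 9.30 to 8.62, 8.79 and 8.49. Its fall of 0.62 ± 0.09 (adjusted p = 0.00726) held without any single array. Beside Tnfrsf11b above, 2 more TNF receptor family genes were called lower, both named after their values were seen. Tnfrsf1b changed by -0.59 (limma's adjusted p = 0.0232, up to 0.147 without 1 array). Relt changed by -0.42 (limma's adjusted p = 0.0099, up to 0.0588 without 1 array).

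**Figure D2:**
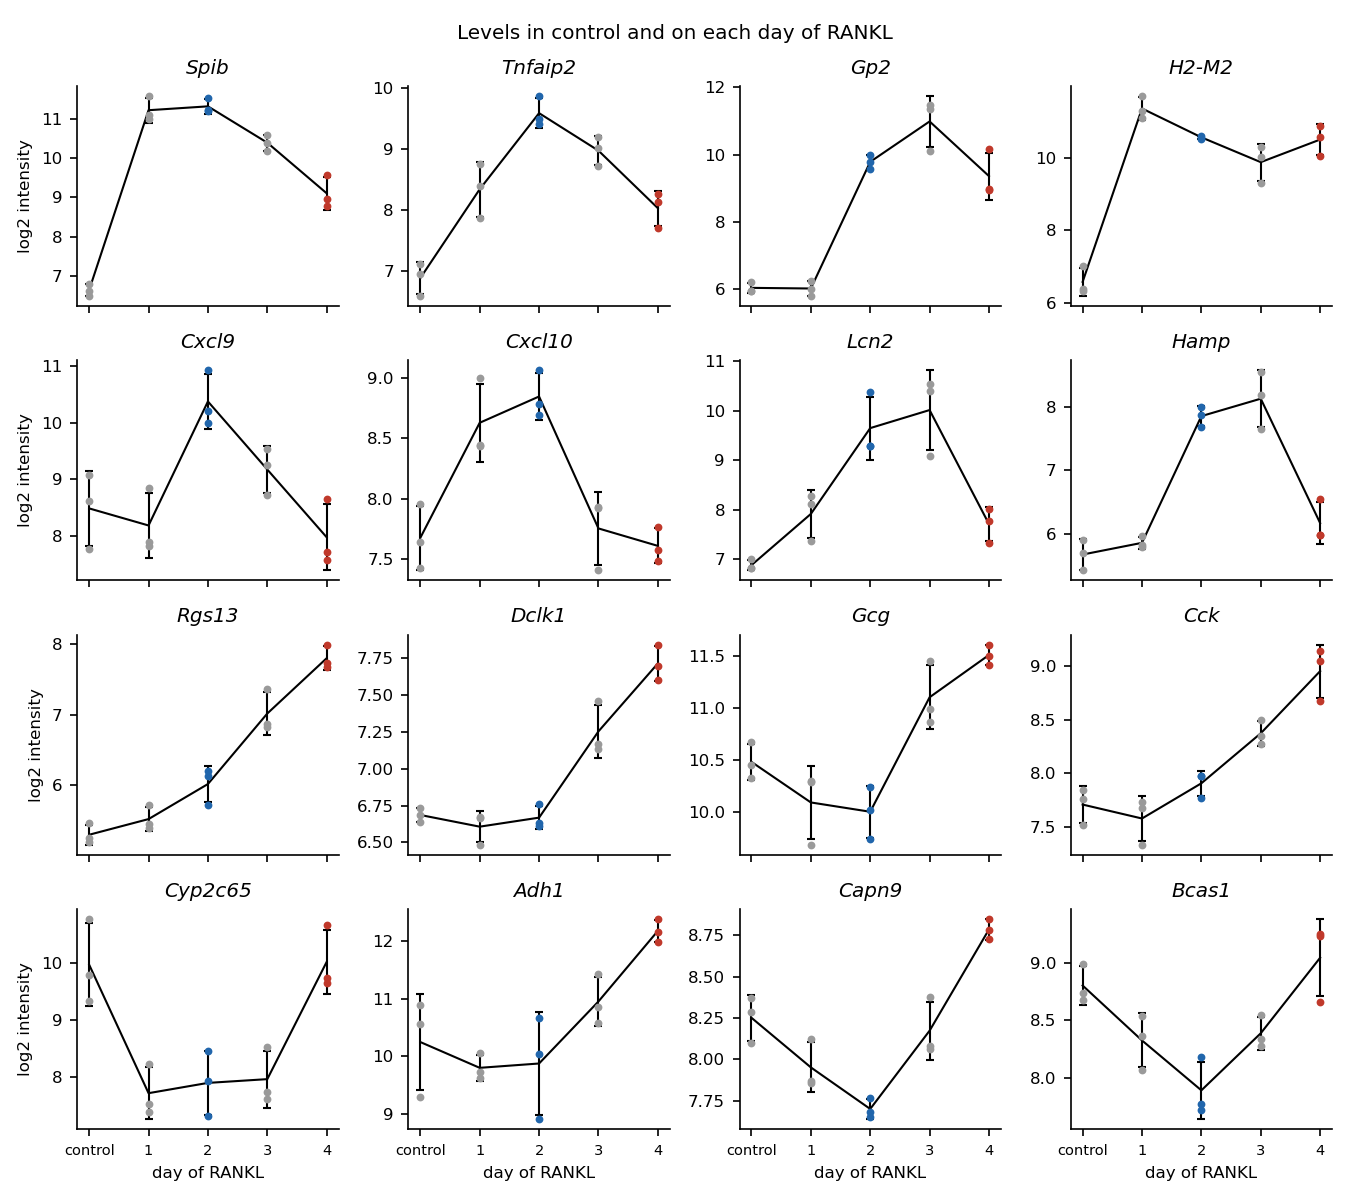
Log2 intensity of 16 genes in control and on days 1 to 4 of RANKL, with 1 point per array, day 2 in blue and day 4 in red, a line through the group means and bars of 1 SD (n = 3). Spib, Tnfaip2 and Cxcl9 are lower on day 3 than on day 2 and lower again on day 4, Lcn2 and Hamp are high on both day 2 and day 3, and Rgs13, Dclk1, Gcg and Cck climb from day 2 to day 4.

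Of 28 chemokine genes, 4 fell and none rose, with a median change of -0.07 (2 fell without day 4 replicate 1), and apart from the M cell chemokine genes Ccl20 and Ccl9 these were Cxcl9 and Cxcl10. Both encode interferon-induced ligands of Cxcr3, a receptor of effector T cells, and they are neighbours on chromosome 5. Their promoter windows are shown as examples of genes that fell, together with that of Gsta3, which rose. The windows are RefSeq's on GRCm38.p6, 250 bases before the transcript start to 50 after it, 5′ to 3′ on the strand of the gene, and capitals mark motif matches. They are chr5:92348840-92349139 on the minus strand for Cxcl10, chr5:92328030-92328329 on the minus strand for Cxcl9, and chr1:21240335-21240634 on the plus strand for Gsta3.
Cxcl10: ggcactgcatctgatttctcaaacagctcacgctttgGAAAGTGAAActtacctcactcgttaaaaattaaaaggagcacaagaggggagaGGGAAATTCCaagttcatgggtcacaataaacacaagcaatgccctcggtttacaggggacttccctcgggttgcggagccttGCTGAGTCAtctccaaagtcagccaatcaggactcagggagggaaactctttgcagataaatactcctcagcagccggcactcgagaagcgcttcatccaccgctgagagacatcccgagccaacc
Cxcl9: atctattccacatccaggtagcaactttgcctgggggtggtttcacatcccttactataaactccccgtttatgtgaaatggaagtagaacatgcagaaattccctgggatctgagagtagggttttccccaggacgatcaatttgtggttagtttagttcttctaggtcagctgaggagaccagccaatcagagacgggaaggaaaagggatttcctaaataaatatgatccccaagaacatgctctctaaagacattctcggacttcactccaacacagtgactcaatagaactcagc
Gsta3: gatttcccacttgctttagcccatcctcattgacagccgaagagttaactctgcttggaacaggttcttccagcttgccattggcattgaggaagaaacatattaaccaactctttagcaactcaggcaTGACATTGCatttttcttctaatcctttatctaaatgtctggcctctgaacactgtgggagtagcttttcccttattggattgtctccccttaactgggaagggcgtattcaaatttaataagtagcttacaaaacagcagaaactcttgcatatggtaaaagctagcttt

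The letters searched, on both strands, were GGGA and TTCC with any 2 bases between them for a kappa B site, GAAA and GAAA with any 2 bases between them for an interferon-stimulated response element, GAGGAAGT for an Ets site and TGACNNNGC for an antioxidant response element. Capitals in the Cxcl10 window are an interferon-type match at bases 38 to 47, a kappa B match at 92 to 101 and an antioxidant-type match on the opposite strand at 175 to 183. The Cxcl9 window holds none of the 4 patterns, and the Gsta3 window an antioxidant-type match at 130 to 138. The windows of Ccl20, Spib and Icam1, which also fell, hold none of the 4 patterns either and are not shown. A match describes the letters and not a bound site. Only these letters were searched, so a window without a match can still hold a variant form of such a site. Windows were found for 119 of the 144 called genes, and a gene with several windows was counted as holding a pattern if any of them did. The interferon-type pattern was held by 5 of 39 genes that fell (12.8%), by 4 of 80 that rose (5.0%) and by 3.89% of the 15614 genes on the array with a window. The kappa B pattern was held by 3 of 39 (7.69%), 2 of 80 (2.5%) and 1.6% of these genes. The antioxidant-type pattern was held by 12.8%, 11.2% and 15.2%, and the Ets pattern by 0 of 39, 1 of 80 and 3.24%. Counted per window over all 32851 windows, the interferon-type, kappa B, antioxidant-type and Ets patterns were in 3.44%, 1.47%, 12.4% and 3.2%. These shares are descriptions of few genes, and none was tested.

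Cxcl9 had the largest fall of the comparison among the called genes. It read 10.92, 10.20 and 10.00 on the day 2 arrays and 7.71, 8.65 and 7.58 on the day 4 arrays, so that the day 4 values lay within or just below the control values of 7.77 to 9.08. The fall was 2.39 ± 0.39 (5.26-fold, adjusted p = 0.0109), with a 95% interval from -3.24 to -1.55. It was not called without day 2 replicate 1 or without day 4 replicate 1 or 3 (adjusted p 0.0543 to 0.0796). Cxcl10 went from 9.06, 8.70 and 8.78 to 7.77, 7.58 and 7.48, also inside the control range of 7.43 to 7.96. Its fall of 1.24 ± 0.19 (adjusted p = 0.00611) held without any single array, and its level was already low on day 3, with a mean of 7.75.

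The interferon-stimulated genes as a list depended on 1 array. Of 49 measured, 2 fell, Cxcl9 and Cxcl10, and the list's median was -0.37, with 6 members above 0. On day 4 replicate 2 the summed intensity of the list was 37035, against 20900 and 18818 on the other day 4 arrays and 32646 to 34528 on the day 2 arrays. That array was the highest of the day 4 arrays in 40 of the 49 genes (81.6%), against 31.9% of all genes. Without it, 15 of the 49 genes were called lower on day 4, among 64 genes called lower in all, and without day 2 replicate 1, day 4 replicate 1 or day 4 replicate 3 only 1 was. The following genes were chosen after their values were seen. Usp18, which removes the ubiquitin-like protein Isg15, read 9.45, 9.18 and 9.49 on day 2 and 7.69, 10.71 and 7.28 on day 4. Ifit1, which binds foreign RNA, read 9.36, 9.38 and 9.69 on day 2 and 8.05, 11.07 and 7.63 on day 4. In both genes replicate 2 was above every day 2 array while replicates 1 and 3 were below every one. Oasl2, of the oligoadenylate synthetase family, showed the same order, with 10.43, 10.41 and 10.26 against 8.59, 10.73 and 8.72. With replicate 2 left out, its change was -1.71 ± 0.14 on the log2 scale (adjusted p = 0.000205). Replicate 2 also was the highest day 4 array in 22 of 30 M cell markers, 43 of 59 cell cycle genes and 32 of 52 T cell markers. When it was left out, 13 M cell markers were called lower, in place of 11.

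Antimicrobial and iron genes gave 3 of the 15 largest falls. Among all genes 0.236% were called lower and 0.487% higher. Of 31 antimicrobial and acute-phase genes, 5 fell (16.1%) and 1 rose, with a median of -0.19. Of 25 genes of iron handling, 3 fell (12%) and none rose, with a median of 0.04. The lists share Lcn2 and Hamp. Lcn2, whose product lipocalin binds bacterial siderophores, read 9.28, 9.28 and 10.39 on day 2 and 7.33, 8.01 and 7.78 on day 4. It fell by 1.94 ± 0.38 (adjusted p = 0.0313), and its day 3 mean was 10.02, so the level was still high a day earlier. Hamp, the gene of the iron hormone hepcidin, went from 8.0, 7.68 and 7.87 through a day 3 mean of 8.13 to 5.98, 6.55 and 5.99. Controls read 5.43, 5.70 and 5.90, so on day 4 it was back near the control level, and its fall of 1.68 ± 0.20 (adjusted p = 0.00199) held without any single array. Wfdc17, a whey acidic protein family gene, went from 9.28, 9.25 and 9.78 through 9.30 on day 3 to 7.44, 7.88 and 8.15, a fall of 1.61 ± 0.29 (adjusted p = 0.0209). Bmp6, an inducer of hepcidin in the liver, fell by 0.50 ± 0.09 (adjusted p = 0.0196), from 8.77, 8.81 and 8.58 to 8.26, 8.29 and 8.12.

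The call of Lcn2 ended without any of the 3 day 2 arrays and without day 4 replicate 1 or 3 (adjusted p 0.0608 to 0.194). For Wfdc17 it ended without any of the day 2 arrays or without day 4 replicate 1 (0.0535 to 0.136), and for Bmp6 without day 2 replicate 1 or 2 or day 4 replicate 1 or 3 (0.0843 to 0.103), and also with the values as deposited (0.106) or median-centred (0.225). The fifth antimicrobial gene that fell, besides Pglyrp1, was Wfdc18, another whey acidic protein gene, by 0.88 ± 0.18 (adjusted p = 0.044, up to 0.254 without 1 array), named after its values were seen. Saa1, an acute-phase apolipoprotein gene, had the lowest estimate of all genes, -2.42, and was not called (adjusted p = 0.202).

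**Figure D3:**
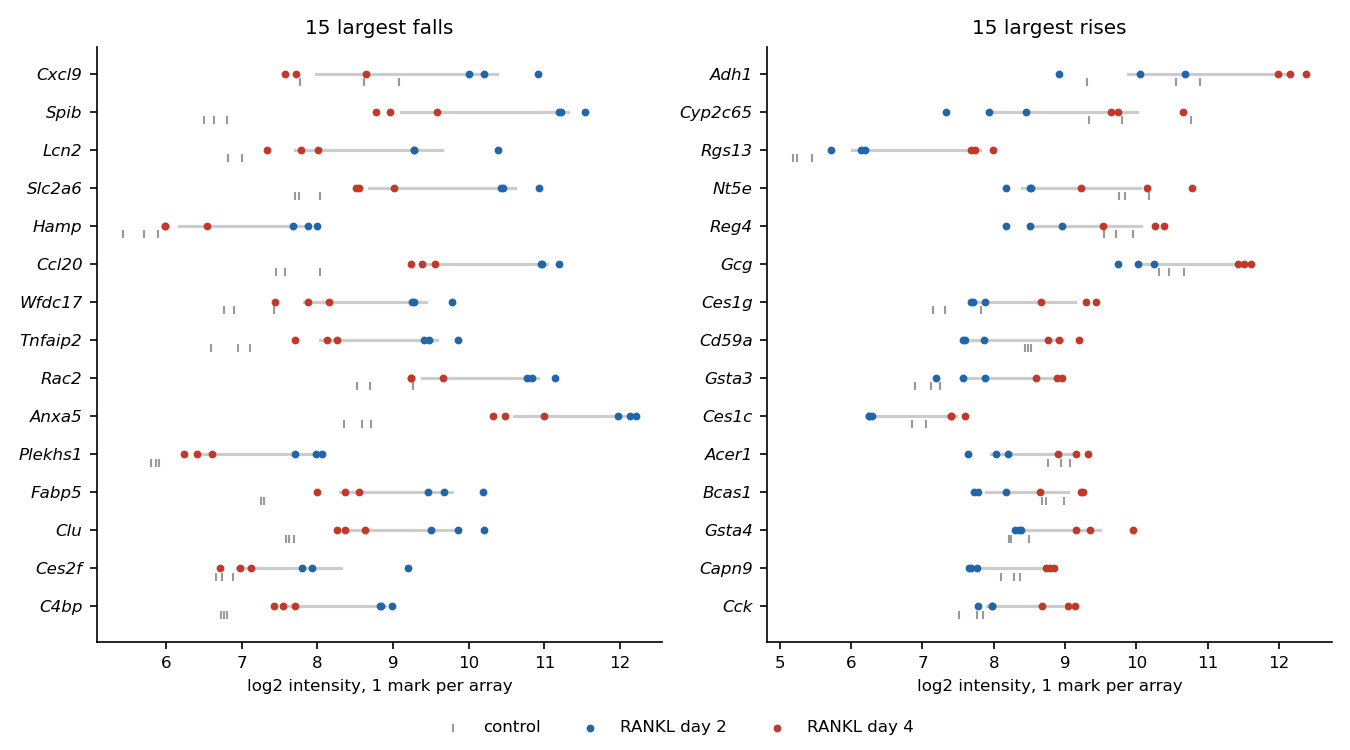
Log2 intensity on each array for the 15 genes with the largest called falls (left) and the 15 with the largest called rises (right), with day 2 in blue, day 4 in red, controls as grey ticks below the row and a grey bar from the day 2 mean to the day 4 mean. The blue and red points do not overlap in any row, and among the falls the red points of Spib, Ccl20 and Anxa5 lie between the control ticks and the blue points.

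Falls outside these groups included genes of sugar transport, oxidase and complement. Slc2a6, a member of the facilitative glucose transporter family, went from 10.43, 10.46 and 10.93 to 8.51, 9.01 and 8.55 and fell by 1.92 ± 0.17 (3.78-fold, adjusted p = 0.000163). Rac2, a small GTPase that activates the phagocyte NADPH oxidase, went from 10.78, 10.84 and 11.15 to 9.24, 9.66 and 9.24 and fell by 1.55 ± 0.21 (adjusted p = 0.00373). Ncf1, an organizer subunit of that oxidase named after its values were seen, fell by 0.61 ± 0.09 (adjusted p = 0.00495). On day 4 Rac2 was at the highest control value, 9.26, on replicates 1 and 3 and above it on replicate 2, while Slc2a6 and Ncf1 stayed above their control range on all 3 arrays. Plekhs1, which encodes a pleckstrin homology domain protein, fell by 1.5 ± 0.13 from 7.98, 7.70 and 8.06 to 6.41, 6.61 and 6.24 (adjusted p = 0.000163). C4bp, a regulator of complement C4, fell by 1.33 ± 0.14 from 8.83, 8.85 and 8.99 to 7.43, 7.70 and 7.55 (adjusted p = 0.000621). All of these calls held without any single array.

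The carboxylesterase gene Ces2f fell by 1.37 ± 0.29 at the edge of the threshold (adjusted p = 0.0496). It read 7.93, 7.80 and 9.20 on day 2 and 6.98, 7.12 and 6.71 on day 4, so day 2 replicate 3 stood well above the rest, and the call was kept in only 2 of the 15 fits without 1 array, those without day 2 replicate 2 or day 1 replicate 2 (adjusted p 0.0517 to 0.203 in the others). It was also lost with median centring (0.0522). Of 23 stem cell markers, 2 fell and none rose, with a median of 0.06. Clca2, named as a stem cell marker in the list and a member of the calcium-activated chloride channel regulator family, went from 6.75, 6.62 and 6.99 to 5.84, 5.96 and 5.95, as low as controls at 5.88 to 5.92, and fell by 0.87 ± 0.09 (adjusted p = 0.00036). The water channel gene Aqp4 fell by 0.61 ± 0.12 (adjusted p = 0.0313), from 8.83, 8.69 and 8.88 to 8.14, 8.32 and 8.12, with controls at 7.37 to 7.45. Its call ended without any of the day 2 arrays or without day 4 replicate 1 or 3 (0.0615 to 0.173), and under the 2 other scalings (0.0583 as deposited and 0.124 median-centred). No other stem cell marker and none of 59 cell cycle genes was called, and the cell cycle median was -0.04.

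The smallest adjusted p-values among the rises were those of the tuft cell genes Rgs13 and Dclk1. Tuft cells are chemosensory epithelial cells with taste-type signalling. Among 25 tuft cell markers there were 4 rises and no fall, against 0.487% of all genes called higher, with a median of 0.15. Estimates ran from -0.58 to 1.79. In 12 markers every day 4 array lay above every day 2 array, against 15.8% of all genes. In 4 markers every day 4 array lay below, against 7.28% of all genes. Rgs13, a regulator of G protein signalling, read 6.20, 6.13 and 5.72 on day 2 and 7.67, 7.74 and 8.0 on day 4. Controls read 5.19 to 5.46, within the background range, so the day 4 arrays were the highest and the day 2 arrays intermediate. The rise was 1.79 ± 0.16 (3.45-fold, adjusted p = 0.000163). Dclk1, the doublecortin-like kinase used to mark tuft cells, read 6.63, 6.76 and 6.61 on day 2, like controls at 6.64 to 6.73, and 7.60, 7.69 and 7.84 on day 4, a rise of 1.04 ± 0.09 (adjusted p = 0.000163). Avil, an actin-bundling protein gene, rose by 0.61 ± 0.09 (adjusted p = 0.00556), from 7.07, 7.0 and 7.11 to 7.55, 7.64 and 7.83.

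Those 3 calls held without any single array. That of Gnat3, the taste G protein gustducin, did not. Its day 2 values of 5.15, 5.28 and 5.13 lay within the background range, its day 4 values were 5.56, 5.47 and 5.58, and the rise was 0.35 ± 0.07 (adjusted p = 0.0422). It was kept in only 3 of the 15 fits without 1 array, those without day 1 replicate 2 or control replicate 2 or 3 (0.0502 to 0.211 in the others), and was lost under both other scalings (0.248 as deposited and 0.152 median-centred). The tuft cell transcription factor Pou2f3 (7.27 on day 2 and 7.40 on day 4, as means) and the cation channel Trpm5 (8.12 and 8.49) did not pass the test. The summed intensity of the tuft list overlapped between the days, at 4467 to 4844 on day 2 and 4777 to 5284 on day 4.

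Enteroendocrine genes, which encode gut hormones and the machinery of their granules, gave the next group of rises. Of 30 measured, 6 rose (20%) and none fell, against 0.487% of all genes called higher, and the median was 0.31. In 21 of the 30 every day 4 array was above every day 2 array, which held for 15.8% of all genes. The summed intensity was 9661 to 10572 on day 2 and 14878 to 15297 on day 4, with controls at 10375 to 11485. Gcg, the precursor gene of the glucagon-like peptides, read 10.24, 10.02 and 9.74 on day 2 and 11.42, 11.51 and 11.61 on day 4. All day 4 values were above the controls at 10.32 to 10.67, and the rise was 1.51 ± 0.18 (2.85-fold, adjusted p = 0.00212). Cck, the gene of cholecystokinin, rose by 1.05 ± 0.14 (adjusted p = 0.00286), from 7.77, 7.97 and 7.97 to 9.14, 9.04 and 8.67.

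Ghrl, the ghrelin gene, rose by 0.97 ± 0.20 (adjusted p = 0.0395), from 8.46, 8.15 and 8.32 to 9.59, 9.23 and 9.01. Reg4, a secreted lectin gene of endocrine and goblet cells, went from 8.96, 8.51 and 8.18 to 10.27, 9.54 and 10.38, a rise of 1.51 ± 0.29 (adjusted p = 0.0297), and with controls at 9.55 to 9.96 its day 2 arrays were the low ones. The granule genes Scg3 and Cpe, named after their values were seen, rose by 0.45 ± 0.09 and 0.56 ± 0.10. Calls of Gcg and Cck held without any single array. That of Ghrl was kept in 6 of the 15 such fits and ended without any day 2 array, day 4 replicate 1 or 2, day 1 replicate 1 or 3 or control replicate 2 or 3 (0.0534 to 0.228). That of Reg4 ended without day 2 replicate 2 or 3 or day 4 replicate 1 or 3 (0.116 to 0.173). Scg3 was lost in 7 such fits (up to 0.162), without any array of day 2 or day 4 or without day 3 replicate 3, and Cpe in 5 (up to 0.0712), without any day 2 array or without day 4 replicate 2 or 3. Between 2 and 4 members were called when 1 array of day 2 or day 4 was left out. The endocrine fate factor Neurog3, with an estimate of -0.14, and the granule marker Chga, with 0.37, did not pass the test.

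Goblet cell genes gave 3 rises among 24 measured (12.5%) and no fall, against 0.487% of all genes called higher. Their median was 0.28, and all 3 calls held without any single array. Estimates ran from -1.30 to 1.15, and the gene with the lowest was not called. Goblet cells make the mucus layer. Bcas1 read 8.18, 7.72 and 7.77 on day 2 and 9.24, 8.65 and 9.23 on day 4, with controls at 8.68 to 8.99, so day 2 was low and day 4 near or above control. It rose by 1.15 ± 0.17 (adjusted p = 0.00612). Capn9, a calpain protease of the digestive tract, rose by 1.09 ± 0.10 (adjusted p = 0.000196), from 7.77, 7.65 and 7.68 to 8.85, 8.73 and 8.78. Sytl2, a synaptotagmin-like regulator of vesicle traffic, rose by 0.81 ± 0.11 (adjusted p = 0.00384), from 8.69, 8.73 and 8.67 to 9.5, 9.51 and 9.51. The 3 day 4 values of Sytl2 and of Capn9 were all above the highest control, 9.33 and 8.37. The main mucin gene Muc2 had an estimate of 0.23 (adjusted p = 0.312). The summed intensity of the list was 81190 to 93659 on day 2 and 94139 to 100213 on day 4, a separation smaller than the spread within day 2. Ern2, an endoplasmic reticulum stress sensor of mucus-secreting epithelium, was the only call among 32 chaperone and stress genes. It rose by 0.68 ± 0.12 (adjusted p = 0.0232), from 9.47, 9.42 and 9.21 to 10.07, 10.00 and 10.07, and was not called without any of the day 2 arrays or without day 4 replicate 1 or 3 (0.0526 to 0.124). None of 18 Paneth cell genes was called, with a median of 0.30. In 10 of the 18 every day 4 array lay above every day 2 array, against 15.8% of all genes. In 3 every day 4 array lay below, against 7.28% of all genes. The largest estimate was that of Reg3a, -0.96 ± 0.40 (limma's adjusted p = 0.482).

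Genes of xenobiotic and glutathione metabolism held the 2 largest rises. Of 62 measured, 9 rose (14.5%) and none fell, against 0.487% of all genes called higher. The median was 0.50, the highest of the 33 lists, and 58 of the 62 estimates were above 0. In 38 every day 4 array was above every day 2 array, which held for 15.8% of all genes. Adh1, an alcohol dehydrogenase that also oxidises retinol, read 10.04, 10.68 and 8.91 on day 2 and 12.38, 11.99 and 12.16 on day 4. It rose by 2.30 ± 0.42 (4.92-fold, adjusted p = 0.0232), above the controls of 9.30 to 10.89. Cyp2c65, a cytochrome P450 of the arachidonic acid-metabolising Cyp2c family, went from 7.93, 7.33 and 8.45 to 10.66, 9.64 and 9.74, a rise of 2.11 ± 0.40 (4.32-fold, adjusted p = 0.0285). Its controls, 9.34 to 10.76, covered the day 4 arrays, and its day 3 mean, 7.97, was still as low as on day 2.

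Among conjugating and ester-cleaving enzymes, the glutathione transferase gene Gsta3 rose by 1.27 ± 0.25 (adjusted p = 0.0302), from 7.56, 7.87 and 7.19 to 8.89, 8.60 and 8.96. Gsta4, a transferase for lipid peroxidation products, rose by 1.14 ± 0.19 (adjusted p = 0.011), from 8.30, 8.36 and 8.38 to 9.35, 9.16 and 9.95. In both, day 4 exceeded every control, at most 7.25 and 8.49. The carboxylesterase gene Ces1g rose by 1.38 ± 0.24 (adjusted p = 0.017), from 7.68, 7.71 and 7.88 to 8.66, 9.30 and 9.44. Its relative Ces1c, which no list held, rose by 1.20 ± 0.19 (adjusted p = 0.00763), from 6.26, 6.29 and 6.26 to 7.59, 7.40 and 7.40. Cyp3a11, a broad-range P450, had an estimate of 1.93 and was not called (adjusted p = 0.084).

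None of the 9 xenobiotic calls held in every fit without 1 array. Adh1 was lost without day 2 replicate 1 or 3 or day 4 replicate 1 or 3 (0.0708 to 0.136), Cyp2c65 without day 2 replicate 1 or 2 or day 4 replicate 1 or 3 (0.0624 to 0.173), and Gsta3 without day 2 replicate 1 or 3 or day 4 replicate 1 or 3 (0.106 to 0.158). Gsta4 was lost without day 2 replicate 1 (0.0538), and Ces1g without any day 2 array or without day 4 replicate 2 or 3 (0.0529 to 0.0804). Outside the list, Ces1c was lost without day 4 replicate 1 (0.0567). Another carboxylesterase gene outside the list, Ces1e, was named after its values were seen. It rose by 0.82 (limma's adjusted p = 0.00286), and its call held without any single array. Without day 2 replicate 1, 2 or 3 the xenobiotic list had 0, 4 and 2 calls, and without day 4 replicate 1, 2 or 3 it had 2, 9 and 5. Its median stayed between 0.40 and 0.54 in these 6 fits. Day 4 replicate 1 was the highest of the day 4 arrays in 41 of the 62 genes (66.1%, against 29.1% of all genes), with a summed intensity of 100922. The day 4 arrays started at 85957, the day 2 arrays ran from 65814 to 69329 and the controls from 70420 to 86258.

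**Figure D4:**
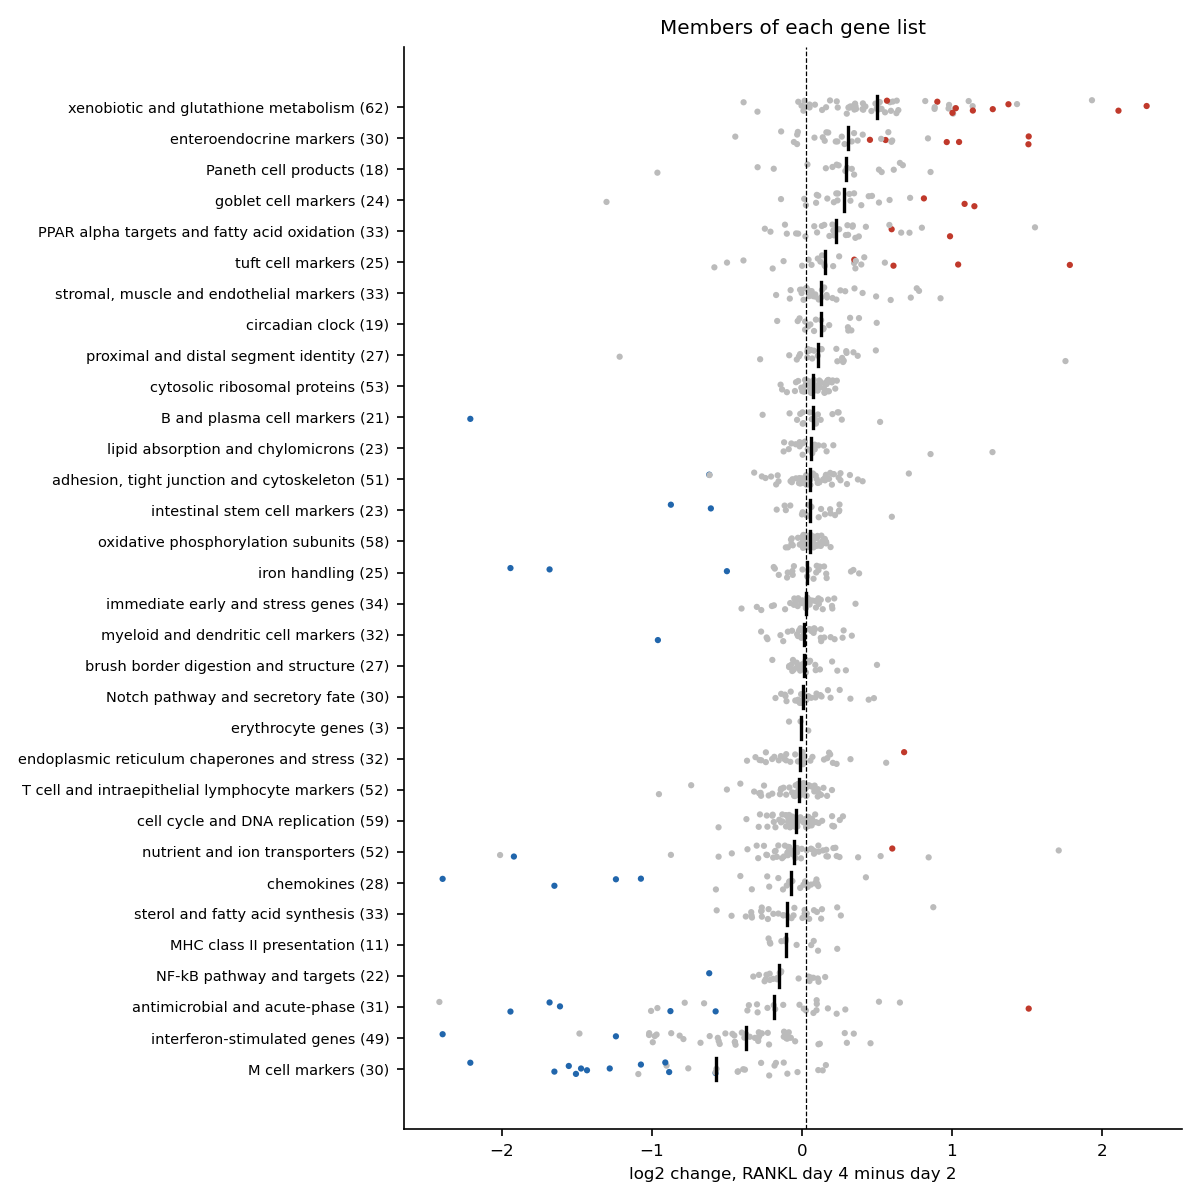
The log2 change from day 2 to day 4 of every measured member of 32 gene lists, with called rises in red, called falls in blue, other members in grey, the list's median as a black bar, the median of all genes (0.03) as a dashed line and the number of members in brackets. Xenobiotic metabolism (median 0.50) stands at the top and M cell markers (median -0.57) at the bottom.

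Fatty acid oxidation and transporters moved in a few members. Of 33 PPAR alpha targets and oxidation genes, 2 rose and none fell, with a median of 0.23. Estimates ran from -0.25 to 1.55, and the gene with the highest was not called. Acaa2, the thiolase of mitochondrial oxidation, rose by 0.99 ± 0.18 (adjusted p = 0.0222), from 9.71, 9.87 and 9.63 to 10.74, 10.84 and 10.60. Cpt1a, which admits long-chain fatty acids to mitochondria, rose by 0.60 ± 0.12 (adjusted p = 0.0361), from 10.96, 10.87 and 10.56 to 11.28, 11.36 and 11.54. Controls, at 10.25 to 10.59 and 11.29 to 11.59, were above the day 2 arrays in both genes. Acaa2 was lost without any day 2 array or without day 4 replicate 1 or 2 (0.0532 to 0.117), and Cpt1a was kept in 6 of the 15 fits without 1 array and lost without any array of day 2 or day 4, day 3 replicate 1 or 3 or control replicate 3 (0.0507 to 0.167). Of 52 transporters, Slc2a6 fell and Slc6a20b, an amino acid transporter gene, rose, by 0.60 ± 0.11 (adjusted p = 0.0278), from 6.89, 6.68 and 6.92 to 7.42, 7.23 and 7.65. Its controls were higher, at 8.04 to 8.20, and the call ended without any day 2 array or without day 4 replicate 1 or 3 (0.0646 to 0.145). Estimates of the 52 transporters ran from -2.01 to 1.71, and the genes at both ends were not called.

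The remaining genes of the 15 largest rises belong to no list. Nt5e, the ectonucleotidase CD73 that makes adenosine, read 8.52, 8.50 and 8.17 on day 2 and 10.78, 10.15 and 9.22 on day 4, so the day 4 arrays were spread over more than their distance from day 2. It rose by 1.65 ± 0.32 (adjusted p = 0.0302) and was not called without any day 2 array or without day 4 replicate 1 or 2 (0.0816 to 0.146). Cd59a, an inhibitor of the complement membrane attack complex, rose by 1.28 ± 0.17 (adjusted p = 0.00373), from 7.87, 7.56 and 7.60 to 9.19, 8.76 and 8.91. Acer1, a ceramidase, rose by 1.16 ± 0.16 (adjusted p = 0.00373), from 8.04, 8.21 and 7.64 to 9.32, 9.15 and 8.90. In Cd59a the controls, at 8.44 to 8.52, lay between the days, and both calls held without any single array.

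**Figure D5:**
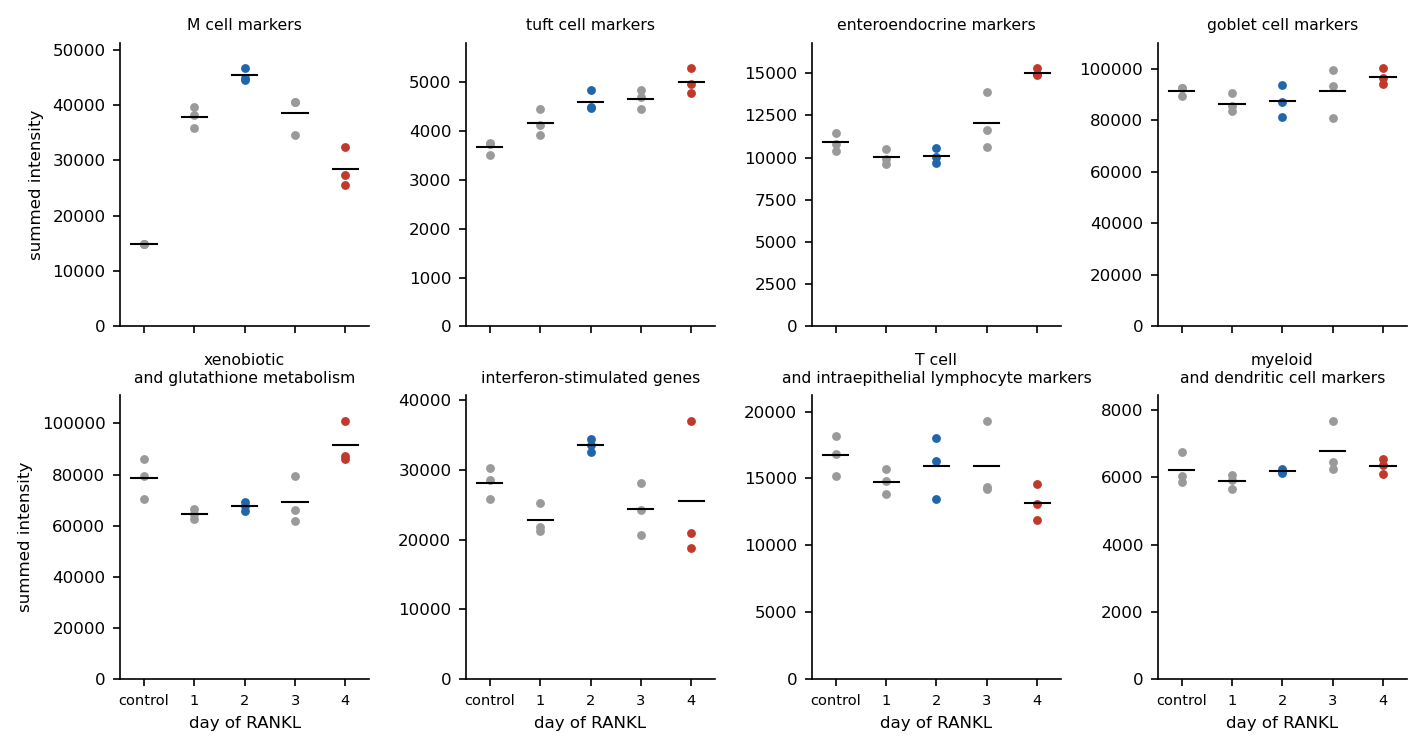
Summed linear intensity of the members of 8 gene lists on each array, in control and on days 1 to 4 of RANKL, with a bar at each group mean. M cell markers are highest on day 2, enteroendocrine and xenobiotic genes highest on day 4, and among the interferon-stimulated genes 1 day 4 array (37035) lies far above the other day 4 arrays (20900 and 18818).

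Markers of other cells that a peeled epithelial sheet can hold gave few calls. None of 52 T cell and intraepithelial lymphocyte markers was called, with a median of -0.02. Their summed intensity overlapped, at 13474 to 18034 on day 2 and 11900 to 14570 on day 4. The member with the largest estimate was Gzmb, the cytotoxic granule protease, at -0.95 ± 0.31 (adjusted p = 0.283), and the T cell receptor chain Cd3e read 9.26 on day 2 and 8.95 on day 4 as means, so lymphocyte transcripts were present on both days. Of 32 myeloid and dendritic cell markers, 1 fell and none rose, with a median of 0.01 and summed intensities of 6132 to 6248 and 6114 to 6552. It was Itgam, the integrin CD11b, at 8.45, 8.53 and 8.91 on day 2 and 7.53, 7.75 and 7.73 on day 4, a fall of 0.96 ± 0.16 (adjusted p = 0.0149) that ended without day 2 replicate 3 (0.0755) or day 4 replicate 1 (0.102). Other myeloid markers such as Csf1r (7.44 and 7.71 as means) and Adgre1 (5.85 and 6.07) were not called. Of 21 B and plasma cell markers, the 1 call was Spib, which the M cell list holds too. The defining B cell genes Cd79a (5.80 and 6.07) and Ms4a1 (5.73 and 5.74) lay close to background on both days. None of 33 stromal, muscle and endothelial genes was called, with a median of 0.13, and none of 3 erythrocyte genes. The part of these cells in the other results was not tested.

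Broad programmes of the epithelium gave no call. That held for 27 brush border genes (median 0.01), 23 genes of lipid absorption (0.06), 33 of sterol and fatty acid synthesis (-0.10), 58 of oxidative phosphorylation (0.05), 53 of cytosolic ribosomal proteins (0.08), 11 of MHC class II presentation (-0.11), 34 immediate early genes (0.03), 19 clock genes (0.13), 30 of the Notch pathway (0.01) and 27 of segment identity (0.11). Tm4sf4, a tetraspanin-like gene in the last of these, had the largest estimate among them, 1.76 ± 0.39 (adjusted p = 0.0671), from 10.68, 9.76 and 9.77 to 12.37, 11.32 and 11.79. It passed at 0.0451 with the values as deposited and at 0.0493 after median centring. Scd1, a fatty acid desaturase, had 0.88 ± 0.32 (adjusted p = 0.38) and the fatty acid receptor Cd36 1.27 ± 0.42 (adjusted p = 0.303), with 8.48 and 7.95 on 2 day 4 arrays and 6.53 on the third. The 51 adhesion and cytoskeleton genes had 1 call, Icam1.

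The timing differed among the genes. The day 3 mean lay between the day 2 and day 4 means in 95 of the 97 genes that rose and in 42 of the 47 that fell, which is a description, since a wider gap leaves more room between its ends, and it held for 41.9% of all genes. Spib passed through a day 3 mean of 10.39, Tnfaip2 through 8.97, Cxcl9 through 9.17 and Clu through 9.03, each roughly midway. Lcn2 and Hamp had day 3 means above those of day 2, Wfdc17 was at 9.30 against 9.44, and these genes were clearly lower on day 4 only. Among the rises, Rgs13 had a day 3 mean of 7.02, Dclk1 7.25 and Gcg 11.10, also between the days, while Cyp2c65 was higher on day 4 only. No difference involving day 3 was tested.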

How the data were processed

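RNA of small-intestinal epithelium was measured on 15 arrays, 3 in each of 5 groups, and 6 of them enter the contrast. The table deposited by the authors holds 1 linear intensity per array for 28853 probe sets. The submitters' processing notes name the build mm9. How the authors summarised, background-corrected and normalized them is not given in the sources used here. Values were log2-transformed without an offset (pseudocount 0), then quantile normalized over all 15 arrays. Fits on fewer arrays used these same normalized values. The annotation gave 1 symbol to 21789 probe sets, several to 1621 and none to 5443. For the 999 of 19938 genes with over 1 probe set, the probe set highest on average across arrays was kept. No filter on dim genes was applied. Promoter sequences are RefSeq's on GRCm38.p6, matched by symbol.

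All 15 arrays entered 1 linear model of group means in limma 3.58.1 under R 4.3.3, with 10 residual and 3.49 prior degrees of freedom. Day 4 minus day 2 was tested two-sided with the moderated statistic. P-values were adjusted by Benjamini-Hochberg over all genes, with calls made below an adjusted p of 0.05. Intervals are 95%. Errors beside log2 changes are SE with 3 arrays per group. The fit was also run on simulated arrays with known changes and independent noise in each gene. Such noise holds no deviation shared by the genes of an array, so that run cannot vouch for the calls made here. The number of arrays limits the precision.

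The arrays compared, the 33 gene lists, the settings and the naming rule were chosen with earlier results of these data known. Genes named are the 15 largest called rises and the 15 largest called falls without overlap between the groups, leaving out unnamed clones and Y chromosome genes, up to 4 called members per list, 13 M cell, tuft and NF-kB genes always, and the largest estimate of a list with no call. A gene outside the rule is said to be so or stands as a marker check. Of 1117 distinct symbols over all lists, 1018 matched a measured gene, which gave 1015 genes. Lists are described by counts and medians without a test of their own.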

Additional observations from a re-analysis of the deposited data

How the results depend on the processing

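The 144 calls (97 higher, 47 lower, and 37, 18 and 19 with a change of 1 or more) stood at 131 to 191 under 10 of the 12 other settings, which changed the scaling, offset, dim genes, probe sets, prior, block or arrays fitted. Weights per array, a fit that warned of not converging, gave 1002 calls (804 higher, 198 lower), 62 of them and 38 of the higher ones at a change of 1 or more. Ordinary unmoderated statistics gave 58 (32 and 26), with 22 and 8 at that size. Leaving out each array in turn gave 52 to 218 calls, 28 to 158 higher and 24 to 64 lower, and at a change of 1 or more 23 to 46, 9 to 21 higher and 14 to 27 lower. The cause was not tested. With the replicate number as a block, 180 genes were called (130 higher, 50 lower). The numbers were not taken as pairs in the main fit. Deviations of day 2 and day 4 arrays with the same number correlated at 0.19, 0.02 and 0.23. Arrays with unlike numbers were not compared, so these values cannot show whether the numbers mark pairs. The block ended 1 named call, that of Cpt1a (adjusted p = 0.0508). Of the named genes' results, 111 lost and 5 gained a call without 1 array while 904 kept their side, and under the other settings 50 lost, 16 gained and 742 kept it. None changed direction while called. Of the 46 named genes that were called, 24 held without every single array. Y chromosome genes differed by 0.08 at most upward and by -0.16 downward, and values near 5 in log2 intensity lie at background.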

Other observations

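Of the 144 called genes, 49 were in a list. The following genes outside the lists were chosen after their values were seen, among those whose call held without any single array. Scin, which encodes an actin-severing protein, rose by 0.69 ± 0.07 (SE, n = 3 arrays per group, adjusted p = 0.000381 in limma), from 10.22, 10.18 and 10.29 on day 2 to 11.01, 10.79 and 10.97 on day 4, with controls at 11.11, 11.18 and 11.11. Its day 4 arrays were thus back just below the controls. Scgn, the gene of the calcium-binding protein secretagogin of endocrine cells, rose by 0.84 ± 0.12 (adjusted p = 0.00384), from 6.17, 6.02 and 6.05 to 6.86, 7.12 and 6.78, above controls at 6.15, 6.28 and 6.16. Creb3l4, a membrane-bound transcription factor gene, rose by 0.71 ± 0.10 (adjusted p = 0.00502), from 8.0, 7.97 and 7.86 to 8.62, 8.61 and 8.75, also above controls at 8.10, 8.13 and 8.15. Ano7, of the anoctamin family, rose by 0.81 ± 0.11 (adjusted p = 0.00286).

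Among the falls, Ccr3, a receptor of eotaxin-type chemokines, went from 7.38, 7.47 and 7.60 to 6.52, 6.54 and 6.50, within the control range of 6.37 to 6.61, a fall of 0.96 ± 0.15 (adjusted p = 0.00741). Epha4, an ephrin receptor gene, fell by 0.86 ± 0.11 (adjusted p = 0.00347), from 8.77, 8.70 and 9.10 to 7.77, 8.08 and 8.14, still above controls at 7.35 to 7.64. Tmem229b fell by 1.1 ± 0.16 (adjusted p = 0.00502). Of 7064 probe sets with no symbol or several, 5 were called when every probe set was fitted, 2 higher and 3 lower on day 4.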
